A study of Mus musculus with 12 samples.

Results

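Collagens are secreted proteins in which 3 chains wind into a triple helix, and each chain has its own gene. The genes described here are the collagen chain genes of mouse mammary tumours, taken as every row of the gene table named Col, a number, a and a number. The rule found 44 of 21899 genes. They were divided by textbook class into 11 fibrillar chains, 8 basement membrane chains, 9 FACIT chains (fibril-associated collagens with interrupted triple helices) and 16 others.

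Fibrillar collagens such as types I, III and V assemble into the fibres of the interstitial matrix and in tumours come largely from fibroblasts. Type IV chains form the sheet-like network of basement membranes under epithelium and around vessels, and multiplexins sit at the edge of that network. FACIT chains coat fibril surfaces, and type VI chains build beaded filaments around cells. A dense fibrillar matrix is a known feature of mammary tumour stroma.

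The tumours grew from 4T1-LUC cells, a luciferase-carrying mouse mammary carcinoma line, injected under the skin of BALB/c mice that were 4 to 6 weeks old. There were 12 RNA sequencing libraries in 4 groups of 3. The combination group received curcumin (100 mg/kg in corn oil, into the stomach each afternoon) and swam for 30 min. The curcumin group received the same curcumin dose without swimming, the swimming group received corn oil and swam for 30 min, and the control group received corn oil alone. All 4 groups therefore carried the same tumour line and received corn oil. Whether the libraries of a group came from separate mice is not stated in the labels, and p-values therefore reflect only how far these 12 libraries spread, which may be technical. Libraries are named by group and replicate, as in control 2.

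Library totals ran from 15069348 to 17278826 counts. The biological coefficient of variation, the spread between libraries of a group beyond counting error, was 6.47% in combination, 12.4% in curcumin, 16.4% in swimming and 26.7% in control. The 8 markers listed for the tumour epithelium summed to 1229 to 1649 FPKM (fragments scaled to gene length and library total). Of these, 7 passed the filter on low counts and Cldn7 did not, with 0 to 8 counts per library. Stromal markers were present beside them. Control 2 stood apart from controls 1 and 3: the mean log2 level of Col1a1, Col3a1 and Col1a2, centred over the 12 libraries, was -1.70 in control 2, against 0.08 in control 1 and 0.35 in control 3. Its skeletal muscle marker level was also the lowest of all libraries. In bulk tumour RNA, fewer cells of a type and less RNA per cell cannot be told apart.

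Collagen chain mRNA made up 1.28% of counts in combination, 1.11% in curcumin, 0.797% in swimming and 0.878% in control. Summed over the 44 genes, levels averaged 1553 ± 53.0 FPKM in combination, 1347 ± 82.4 FPKM in curcumin, 996 ± 200.2 FPKM in swimming and 1104 ± 264 FPKM in control (SD, n = 3 each). All 3 combination libraries, at 1505 to 1610 FPKM, lay above every other library, and the highest of those was curcumin 2 at 1440.4 FPKM. Control 2, at 799.6 FPKM, lay beside swimming 3, at 784.7 FPKM, at the low end.

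The rank of the chains by level was set by a few genes. Averaged over all libraries, Col1a1 stood at 252 FPKM, Col6a1 at 125 FPKM, Col4a1 at 119 FPKM, Col3a1 at 103 FPKM and Col1a2 at 89.7 FPKM. These levels use the gene lengths in the table, which for some genes exceed a single transcript. Col1a2 has a table length of 12426 bases, against 5348 bases for its principal transcript, and per principal transcript it moved from rank 5 to rank 2. For a single gene, relative differences between libraries do not depend on this length. Sums of FPKM over genes, and the shares and ratios made from them, do depend on it, because it sets the weight of each gene.

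**Figure D1:**
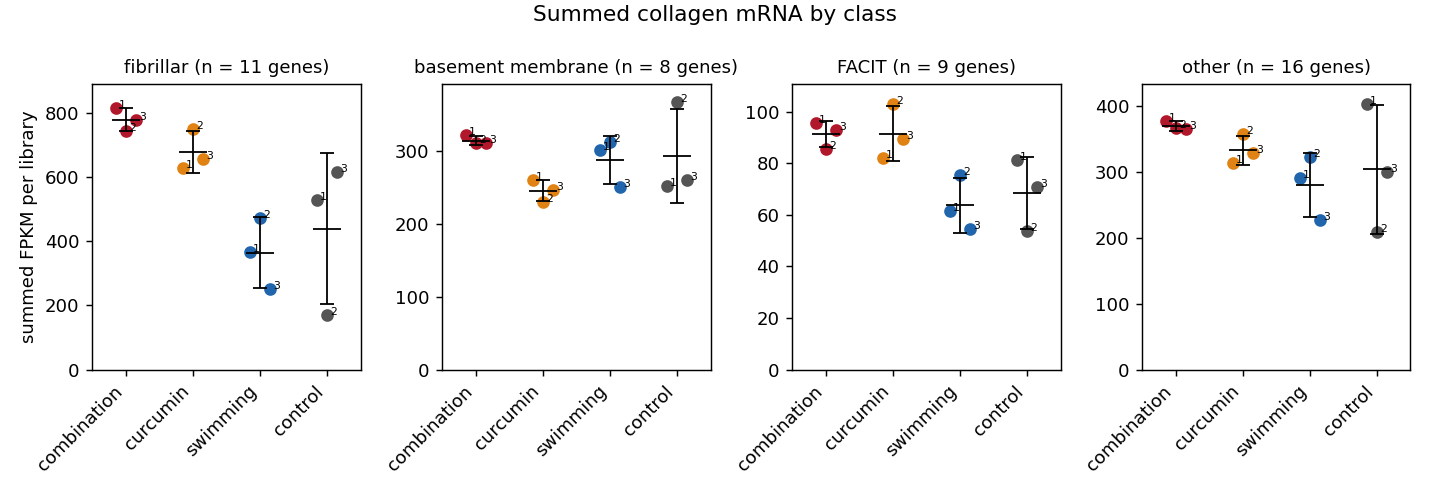
Summed FPKM of each collagen class in each library, with 1 panel per class. Points are libraries numbered by replicate, the horizontal line is the group mean and the bar is the SD (n = 3). Fibrillar sums of the combination libraries, 742 to 816 FPKM, lie above the swimming sums, 252 to 474 FPKM, while control ranges from 171 to 617 FPKM.

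The 4 classes did not keep one proportion. Fibrillar chains summed to 778 ± 36.7 FPKM in combination, 678 ± 64.2 FPKM in curcumin, 364 ± 111 FPKM in swimming and 439 ± 236 FPKM in control (SD, n = 3 each). Fibrillar chains thus supplied 50.1% of collagen FPKM in combination and 50.2% in curcumin, against 36.03% in swimming and 37.6% in control. The control share ranged from 21.4% (control 2) to 49.5%, so the control group alone spanned most of the range of the 12 libraries, whose highest share was 52.1%.

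Basement membrane chains varied less between groups. Their sums averaged 314 ± 6.12 FPKM in combination, 245 ± 14.7 FPKM in curcumin, 288 ± 32.7 FPKM in swimming and 292 ± 64.0 FPKM in control (SD, n = 3 each). Control 2 had the highest sum, 366 FPKM. The library with the least fibrillar mRNA was therefore the one with the most basement membrane mRNA.

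The opposition in control 2 did not hold across groups. Combination had the highest mean of both fibrillar and type IV chains, 778 and 236 FPKM. The ratio of fibrillar to type IV chains gives their balance in a single value. It averaged 3.29 ± 0.11 in combination, 3.76 ± 0.54 in curcumin, 1.81 ± 0.30 in swimming and 2.28 ± 1.48 in control (SD, n = 3 each). Every combination and curcumin library, at 3.17 or above, lay over every swimming library, at 2.13 or below. Control ranged from 0.587 in control 2 to 3.36 in control 3 and so overlapped with all 3 other groups.

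**Figure D2:**
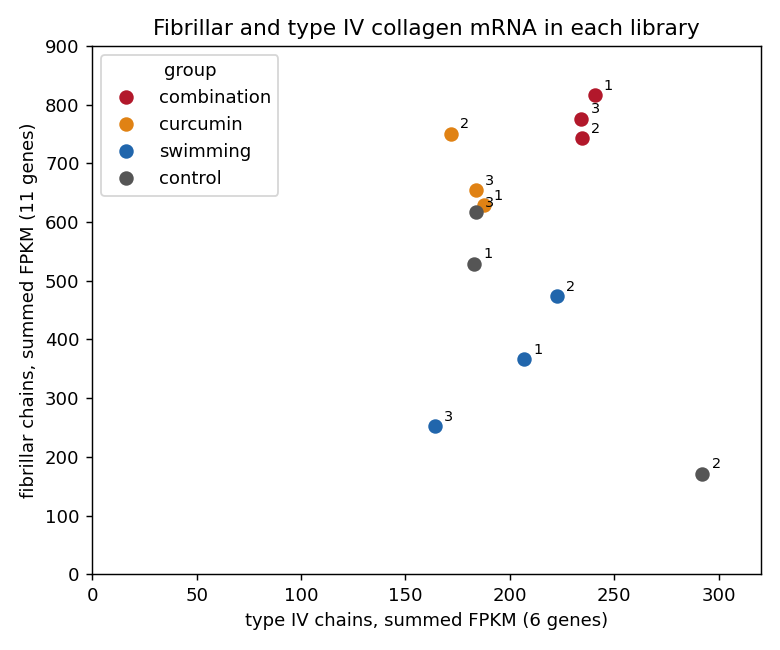
Summed FPKM of the 11 fibrillar chains (vertical axis) against the 6 type IV chains (horizontal axis). Each point is 1 of 12 libraries, coloured by group and numbered by replicate. Combination libraries are high on the vertical axis and tightly placed, at 742 to 816 FPKM, and control 2 lies alone at 171 FPKM fibrillar and 292.2 FPKM type IV.

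FACIT chains summed to 91.4 ± 5.15 FPKM in combination, 91.5 ± 10.8 FPKM in curcumin, 63.7 ± 10.6 FPKM in swimming and 68.6 ± 13.9 FPKM in control (SD, n = 3 each). The other chains summed to 369.6 ± 6.93 FPKM in combination, 333 ± 22.0 FPKM in curcumin, 280.4 ± 48.5 FPKM in swimming and 304 ± 97.6 FPKM in control (SD, n = 3 each). Control 1, at 81.2 FPKM for FACIT chains and 403 FPKM for the others, lay just under the combination libraries in the first of these classes and above them in the second.

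Each gene was then tested with edgeR's quasi-likelihood test over the 13638 genes that passed a filter on low counts, and was called at a Benjamini-Hochberg adjusted p of 0.05 or below. Of the 44 collagen genes, 36 passed the filter: all 11 fibrillar chains, 7 basement membrane chains, 6 FACIT chains and 12 others. The 8 that did not pass were Col4a3, Col9a2, Col19a1, Col22a1, Col6a4, Col10a1, Col25a1 and Col26a1, with 3 to 73 counts each over all 12 libraries. These include the hypertrophic cartilage chain Col10a1 and the kidney basement membrane chain Col4a3.

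**Figure D3:**
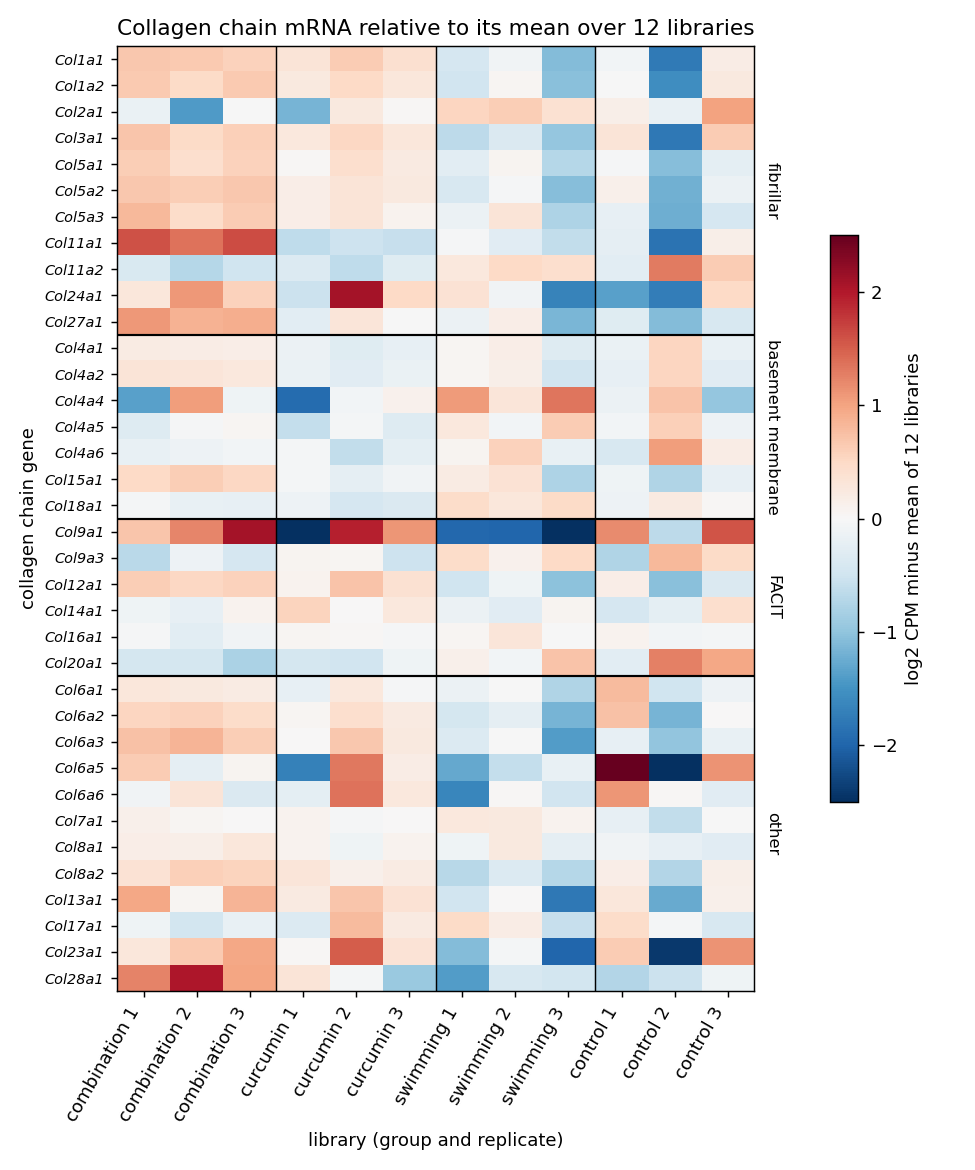
Log2 CPM (counts scaled to library size) of the 36 tested collagen genes in each of 12 libraries, after subtracting each gene's mean over all libraries. Rows are genes by class, columns are libraries by group, red is above and blue below the gene's mean, and the colour is limited to 2.5 in either direction. Most fibrillar rows are red in combination, pale red in curcumin and blue in swimming 3 and control 2, while Col2a1 and Col11a2 run the other way.

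The combination against control asks what both measures together did to the tumour. In this comparison 6 collagen genes were called, against 4.86% of all tested genes. Col11a1, Col27a1, Col5a3 and Col28a1 rose (2.43% of all genes were called higher), and Col11a2 and Col20a1 fell (2.43% of all genes were called lower). The median log2 fold change was 0.36 over the 36 tested collagen genes, of which 24 were positive, against -0.02 over all tested genes, of which 47.2% were positive. By class it was 0.97 for fibrillar chains, 0.08 for basement membrane chains, -0.07 for FACIT chains and 0.36 for the others. The 3 combination libraries lay wholly above the 3 control libraries for 13 of the 36 genes and wholly below for 2, against 14.2% and 17.7% of all genes.

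Col11a1 (ENSMUSG00000027966, chr3:113824189-114014367 in the table), the α1 chain of type XI collagen, which starts fibrils in cartilage and is also known from tumour fibroblasts, had the lowest adjusted p among the collagens called here. It had 1.49, 1.26 and 1.54 FPKM in combination, 0.322, 0.349 and 0.335 FPKM in curcumin, 0.467, 0.394 and 0.317 FPKM in swimming and 0.422, 0.127 and 0.565 FPKM in control. All 3 combination libraries lay far above the 9 libraries of the other groups. Against control the log2 fold change was 1.98 ± 0.36 (SE, n = 3 each, edgeR adjusted p = 0.0191). Of 8 markers listed for cartilage and bone, Acan, Matn1 and Hapln1 had at most 1 count in any library and Comp had 3 to 27, whereas Sox9 had 933 to 2373 counts and Ibsp 1180 to 3634. None of the 3 of these markers that passed the filter was called against control.

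Col27a1 (ENSMUSG00000045672, chr4:63132241-63253228), the chain of the fibrillar type XXVII collagen, had 3.51, 2.99 and 3.11 FPKM in combination, 1.41, 2.08 and 1.68 FPKM in curcumin, 1.45, 1.82 and 0.739 FPKM in swimming and 1.35, 0.756 and 1.31 FPKM in control. The combination libraries stood above all 9 others. Its log2 fold change against control was 1.52 ± 0.30 (SE, n = 3 each, edgeR adjusted p = 0.0250).

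Col5a3 (ENSMUSG00000004098, chr9:20681346-20726363), the α3 chain of type V collagen, which is built into type I fibrils, had 24.1, 18.5 and 21.3 FPKM in combination, against 11.97, 5.73 and 10.7 FPKM in control. Its curcumin libraries had 15.9, 17.4 and 15.1 FPKM and its swimming libraries 11.9, 16.7 and 7.94 FPKM. The combination libraries did not overlap with those of any other group. It rose against control by 1.204 ± 0.28 on the log2 scale (SE, n = 3 each, edgeR adjusted p = 0.0398).

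Col28a1 (ENSMUSG00000068794, chr6:7997808-8192617), a chain known from the surroundings of Schwann cells in peripheral nerve, was a low gene, with 0.555, 0.955 and 0.463 FPKM in combination, against 0.124, 0.142 and 0.210 FPKM in control. Curcumin libraries had 0.292, 0.217 and 0.107 FPKM and swimming libraries 0.0660, 0.157 and 0.152 FPKM. The combination libraries again stood above all others, though combination 2 was at about 2 times the level of combination 3. It rose by 2.07 ± 0.46 on the log2 scale (SE, n = 3 each, edgeR adjusted p = 0.0322).

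Both genes that fell in combination had their highest level in control 2. Col11a2 (ENSMUSG00000024330, chr17:34258411-34285659), the partner α2 chain of type XI collagen, had 1.59, 1.25 and 1.47 FPKM in combination, 1.69, 1.37 and 1.74 FPKM in curcumin, 2.43, 2.87 and 2.79 FPKM in swimming and 1.75, 5.08 and 3.40 FPKM in control. Its log2 fold change against control was -1.23 ± 0.30 (SE, n = 3 each, edgeR adjusted p = 0.0400). The 2 chains that join in type XI collagen thus moved in opposite directions against control.

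Col20a1 (ENSMUSG00000016356, chr2:180628328-180660156), a FACIT chain, had 1.40, 1.37 and 1.09 FPKM in combination, 1.44, 1.38 and 1.80 FPKM in curcumin, 2.01, 1.78 and 3.10 FPKM in swimming and 1.60, 4.50 and 3.92 FPKM in control. Control 1 lay close to the combination libraries, and controls 2 and 3 lay far above them. It fell by 1.35 ± 0.33 on the log2 scale (SE, n = 3 each, edgeR adjusted p = 0.0423).

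**Figure D4:**
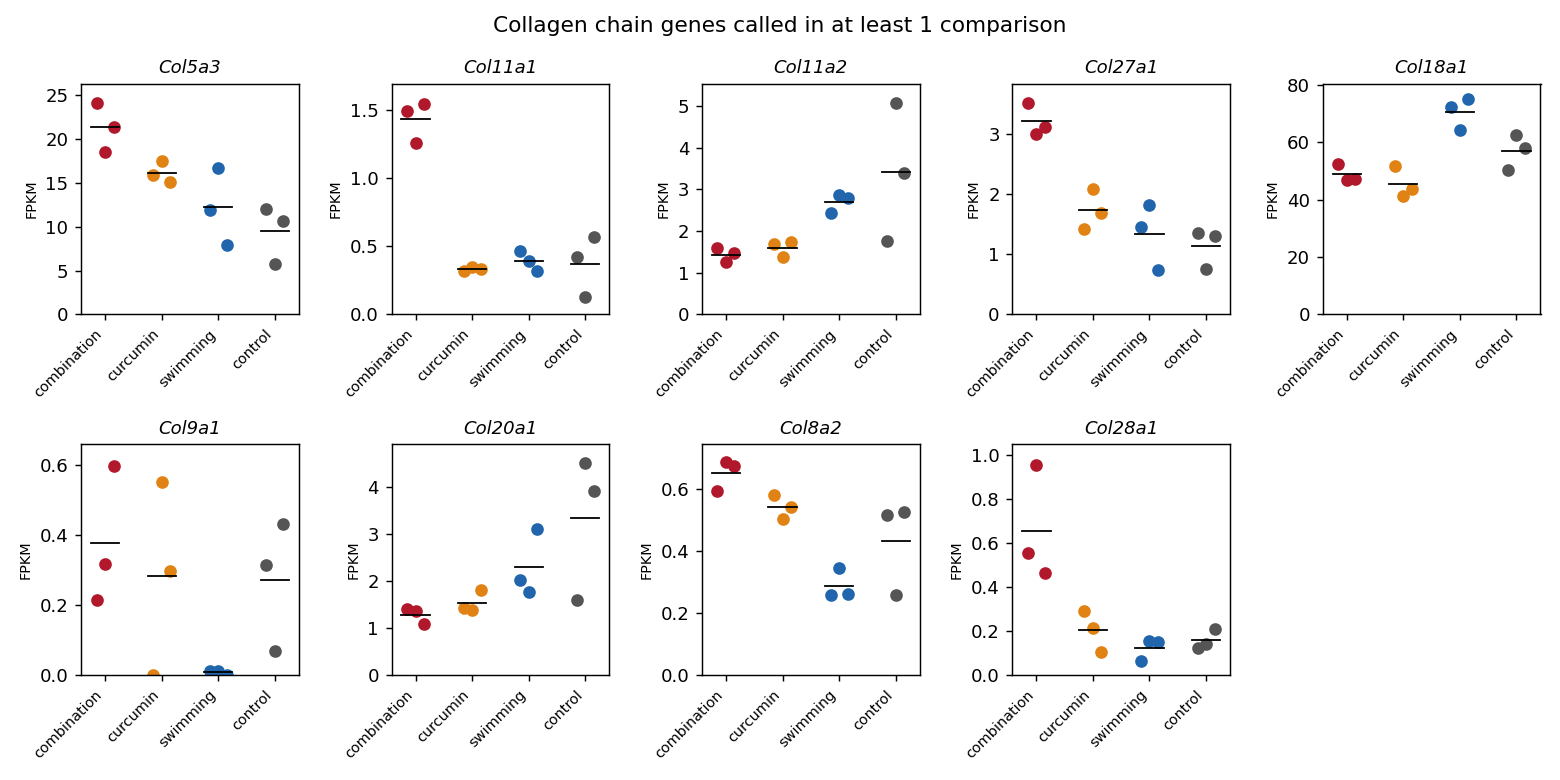
FPKM in each library of the 9 collagen genes called in at least 1 comparison, 1 panel per gene with its own vertical axis from 0. Points are libraries and lines are group means (n = 3). Col11a1, Col27a1, Col5a3 and Col28a1 have all 3 combination libraries above the other 9, and Col9a1 is at 0 to 0.0128 FPKM in swimming.

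The count of calls depended on which libraries were included, those outside the comparison among them. No collagen gene was called when any 1 of the 3 combination libraries was left out, and only Col11a1 when control 2 was, while without control 3 the count was 2, without any 1 curcumin library or swimming 1 it was 3, without swimming 3 it was 10 and without control 1 it was 12. Over all genes the share called was 0.0289% to 0.145% without any 1 combination library, 2.29% without control 2, 2.35% without control 3, 1.3% to 3.86% without any 1 curcumin library, 1.97% without swimming 1, 5.82% without swimming 3 and 15.8% without control 1. Without control 2 the median over the collagens was 0.18, without control 1 it was 0.54, and without control 2 the Col11a2 log2 fold change was -0.79.

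The promoters of the called fibrillar chains and of Col28a1 are shown because these genes rose together or, for Col11a2, fell. Col20a1 also fell, but its window overlaps an exon of BX649560.1 and is not shown. Each is the 250 bases before the start of transcription in RefSeq's GRCm38.p6 annotation, written 5′ to 3′ on the strand of the gene, and 35 of the 44 collagen genes were matched in that annotation's table. Capitals mark matches, on either strand, of 5 short motifs. These were the TATA box written as TATAAA, the box named CCAAT, the GC box bound by Sp1 and written as GGGCGG, the AP-1 site written as TGANTCA and the Smad-binding sequence written as CAGACA.
Col11a1, chr3:114030290-114030539, plus strand: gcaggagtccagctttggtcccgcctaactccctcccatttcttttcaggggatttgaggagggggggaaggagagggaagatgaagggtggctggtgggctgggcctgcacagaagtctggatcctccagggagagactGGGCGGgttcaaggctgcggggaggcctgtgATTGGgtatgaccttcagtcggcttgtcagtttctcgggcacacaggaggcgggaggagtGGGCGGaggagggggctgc
Col27a1, chr4:63215162-63215411, plus strand: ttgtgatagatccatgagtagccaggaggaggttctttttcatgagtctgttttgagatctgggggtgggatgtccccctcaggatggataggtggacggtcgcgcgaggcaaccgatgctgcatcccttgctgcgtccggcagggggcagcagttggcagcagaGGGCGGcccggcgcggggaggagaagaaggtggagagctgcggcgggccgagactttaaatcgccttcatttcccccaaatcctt
Col5a3, chr9:20815068-20815317, minus strand: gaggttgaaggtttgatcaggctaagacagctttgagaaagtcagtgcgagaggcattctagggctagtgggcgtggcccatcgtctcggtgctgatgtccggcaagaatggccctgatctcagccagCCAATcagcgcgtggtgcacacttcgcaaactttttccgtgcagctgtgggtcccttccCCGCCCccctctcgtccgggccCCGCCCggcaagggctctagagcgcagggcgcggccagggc
Col28a1, chr6:8192618-8192867, minus strand: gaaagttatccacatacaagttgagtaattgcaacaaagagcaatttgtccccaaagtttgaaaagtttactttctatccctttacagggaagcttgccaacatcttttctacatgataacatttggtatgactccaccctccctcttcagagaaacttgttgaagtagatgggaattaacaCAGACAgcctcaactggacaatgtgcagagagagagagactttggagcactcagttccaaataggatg
Col11a2, chr17:34038888-34039137, plus strand: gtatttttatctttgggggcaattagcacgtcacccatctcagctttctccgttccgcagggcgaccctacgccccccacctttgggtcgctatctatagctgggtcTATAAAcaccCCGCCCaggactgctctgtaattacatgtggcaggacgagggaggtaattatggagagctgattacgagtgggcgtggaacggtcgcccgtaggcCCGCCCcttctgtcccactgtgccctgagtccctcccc

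GGGCGG occurred in the windows of Col11a1, Col27a1, Col5a3 and Col11a2, CCAAT in those of Col11a1 and Col5a3, TATAAA in that of Col11a2 and CAGACA in that of Col28a1. Among all 32851 windows of this length, GGGCGG occurred in 32.7%, CCAAT in 33.85%, CAGACA in 17.1%, TATAAA in 12.4% and TGANTCA in 6.75%. Of 38 windows of collagen genes, GGGCGG occurred in 22, CCAAT in 13, CAGACA in 9, TATAAA in 5 and TGANTCA in 1. The windows of Col11a1 and Col5a3 were 62.4% and 62.8% G and C, against 40.4% for Col28a1. A match is a description of the letters, and binding was not measured.

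The abundant fibrillar chains did not pass the threshold. Col1a1 (ENSMUSG00000001506, chr11:94827050-94843868), the α1 chain of type I collagen, had 362, 348 and 338 FPKM in combination, 292, 355 and 306 FPKM in curcumin, 164, 208 and 105 FPKM in swimming and 217, 64.8 and 267 FPKM in control. The combination libraries lay above all swimming and control libraries, but the 3 controls differed among themselves by about 4-fold. Its log2 difference from control was 0.97 ± 0.40 (SE, n = 3 each, edgeR adjusted p = 0.152).

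Col1a2 (ENSMUSG00000029661), the α2 chain that joins Col1a1 chains in type I collagen, had 128, 112 and 128 FPKM in combination, 99.7, 118 and 102 FPKM in curcumin, 57.3, 82.3 and 39.3 FPKM in swimming and 81.7, 27.4 and 101 FPKM in control. It followed Col1a1 across the libraries, with a ratio of Col1a1 to Col1a2 reads between 1.25 and 1.64. Col3a1 (ENSMUSG00000026043), the chain of type III collagen of reticular fibres, had 148, 125 and 138 FPKM in combination, 113, 133 and 114 FPKM in curcumin, 56.7, 69.2 and 46.3 FPKM in swimming and 116, 26.0 and 147 FPKM in control. Control 3 reached the level of the combination libraries and control 2 was the lowest of all 12.

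The remaining fibrillar chains had mean levels of 0.0840 (Col2a1) to 58.7 FPKM (Col5a2). Col5a1 and Col5a2, the main chains of type V collagen, missed the threshold against control with log2 differences of 0.92 ± 0.25 and 0.97 ± 0.30 (SE, n = 3 each, edgeR adjusted p = 0.0557 and 0.0834). The cartilage chain Col2a1 and the bone-associated Col24a1 had wide errors at 3 to 26 and 5 to 89 counts per library.

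Markers of fibroblasts and of other cell types were read beside the fibrillar chains. The mean centred log2 level of 10 fibroblast markers was 0.25 to 0.35 in combination, 0.14 to 0.60 in curcumin, -0.60 to -0.41 in swimming and -1.03 to 0.48 in control, where control 2 was again the lowest. Their summed level was 194 to 212 FPKM in combination, 162 to 204 FPKM in curcumin, 88.9 to 121 FPKM in swimming and 82.7 to 179 FPKM in control. None of the 10 was called in any of the comparisons. Their median log2 difference was 0.34 in combination against control and 0.87 against swimming, but -0.26 against curcumin, where the fibrillar median was 0.25. The summed adipocyte markers were also higher in combination, at 10.1 to 11.999 FPKM, against 3.49 to 5.85 FPKM in control. Of 4 tested, Cfd and Cidec were called higher (2.43% of all genes were). They had 43 to 67 and 27 to 32 counts in combination, against 0 to 1 in control. Lipe went the other way, at 1.78 to 1.96 FPKM in combination, against 2.05 to 2.31 FPKM in control. Neutrophil markers S100a8 and Retnlg were called lower of 7 tested (2.43% of all genes were), with a median log2 difference of -1.49. Mmp9, of the same list, went the other way, at 6848 to 7053 counts in combination, against 1442 to 4835 in control. The 8 endothelial markers all had a positive difference from control, with a median of 0.52 and Emcn called. Their mean centred log2 level was 0.59 to 0.73 in combination and 0.51 in control 2, against -0.06 in control 1 and -0.15 in control 3. For Tie1 and Cldn5, control 2 lay above every combination library. Of 8 pericyte and smooth muscle markers Abcc9 was called higher, where 2.43% of all genes were called higher. None of 9 tested skeletal muscle markers had a positive difference, at a median of -1.43, and none was called. The part of these cell types in the collagen differences was not tested.

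No type IV chain was called in combination against control. Col4a1 (ENSMUSG00000031502), the α1 chain found in nearly all basement membranes, had 136, 131 and 132 FPKM in combination, 110.1, 97.1 and 105 FPKM in curcumin, 117, 129 and 93.2 FPKM in swimming and 106, 167 and 107 FPKM in control. Col4a2 (ENSMUSG00000031503), its α2 partner, had 96.1, 92.9 and 91.6 FPKM in combination, 70.4, 64.1 and 70.1 FPKM in curcumin, 77.3, 83.1 and 54.5 FPKM in swimming and 66.9, 109 and 66.1 FPKM in control. In both genes control 2 was the highest of the 12 libraries and controls 1 and 3 lay beneath every combination library.

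The log2 difference of Col4a1 from control was 0.08 ± 0.18 and that of Col4a2 was 0.23 ± 0.20 (SE, n = 3 each, edgeR adjusted p = 0.791 and 0.486). The pair lies head to head on mouse chromosome 8, where the rows of the table overlap by 22 bases, and the ratio of Col4a1 to Col4a2 stayed between 1.41 and 1.71 in all libraries. Col4a4 and Col4a3 lie head to head 71 bases apart, and Col4a6 and Col4a5 1308 bases apart, each at far lower levels: Col4a5 averaged 10.5 FPKM and Col4a6 0.375 FPKM. Of the multiplexins, Col15a1 had a log2 difference from control of 0.87 ± 0.25 (SE, n = 3 each, edgeR adjusted p = 0.0619), which did not pass.

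Among FACIT chains, Col12a1 (ENSMUSG00000032332), which coats type I fibrils, had 64.2, 58.4 and 61.8 FPKM in combination, 45.9, 69.1 and 55.5 FPKM in curcumin, 28.5, 37.7 and 20.3 FPKM in swimming and 47.3, 19.7 and 33.7 FPKM in control. Its pattern was like that of type I collagen, and its log2 difference from control was 0.90 ± 0.29 (SE, n = 3 each, edgeR adjusted p = 0.0910). Col16a1 (ENSMUSG00000040690) had 26.3, 22.1 and 25.4 FPKM in combination, 28.8, 27.9 and 27.3 FPKM in curcumin, 26.9, 32.4 and 26.6 FPKM in swimming and 29.1, 25.3 and 27.2 FPKM in control. It varied little in any group, control 2 included, with a log2 difference of -0.12 ± 0.09 from control (SE, n = 3 each, edgeR adjusted p = 0.421).

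Col14a1 (ENSMUSG00000022371), another fibril-coating chain, had 2.95, 2.68 and 3.38 FPKM in combination, 4.83, 3.24 and 3.92 FPKM in curcumin, 2.79, 2.55 and 3.28 FPKM in swimming and 2.38, 2.60 and 4.39 FPKM in control. All 4 groups overlapped. Its log2 difference from control was -0.03 ± 0.21 (SE, n = 3 each, edgeR adjusted p = 0.947). Col9a3, a cartilage FACIT chain, averaged 0.869 FPKM and overlaps Tcfl5 on the opposite strand by 234 bases in the table. Tcfl5 averaged 0.281 CPM over its whole length, against 2.37 to 4.03 CPM for Col9a3 as group means.

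In the remaining classes the levels were led by Col6a1 (ENSMUSG00000001119), the α1 chain of type VI collagen, with 146, 140.0 and 139 FPKM in combination, 107, 146 and 120.2 FPKM in curcumin, 105, 116 and 70.8 FPKM in swimming and 210.1, 83.8 and 115 FPKM in control. Control 1 was the highest of all libraries and control 2 the lowest but for swimming 3. The log2 difference from control was 0.08 ± 0.29 (SE, n = 3 each, edgeR adjusted p = 0.880). Col6a3, the long α3 chain of the same filament, had 35.0 ± 2.35 FPKM in combination, 27.3 ± 6.25 FPKM in curcumin, 14.9 ± 6.40 FPKM in swimming and 16.1 ± 4.95 FPKM in control (SD, n = 3 each).

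The chains of type VI collagen therefore did not keep a fixed proportion. The ratio of Col6a3 to Col6a1 reads was 0.674 ± 0.046 in combination, 0.595 ± 0.040 in curcumin, 0.403 ± 0.090 in swimming and 0.346 ± 0.109 in control (SD, n = 3 each). All combination and curcumin libraries, at 0.561 or above, stood over all swimming and control libraries, at 0.482 or below. Col6a3 missed the threshold against control, with a log2 difference of 1.15 ± 0.32 (SE, n = 3 each, edgeR adjusted p = 0.0616).

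Col7a1 (ENSMUSG00000025650), the chain of the anchoring fibrils that tie basement membrane to dermis, had 92.2, 85.5 and 84.6 FPKM in combination, 92.2, 83.5 and 87.2 FPKM in curcumin, 98.2, 96.5 and 88.4 FPKM in swimming and 73.3, 53.6 and 86.9 FPKM in control. Col8a1 (ENSMUSG00000068196), a short chain of hexagonal networks in vessel walls and cornea, had 63.1, 61.5 and 68.9 FPKM in combination, 61.7, 53.5 and 61.2 FPKM in curcumin, 51.1, 65.5 and 47.7 FPKM in swimming and 53.5, 47.8 and 48.0 FPKM in control. For Col8a1 the combination libraries lay above all controls. The log2 difference from control was 0.32 ± 0.13 for Col7a1 and 0.40 ± 0.12 for Col8a1 (SE, n = 3 each, edgeR adjusted p = 0.131 and 0.0618).

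The transmembrane chains Col13a1, Col17a1 and Col23a1 averaged 0.288 to 0.485 FPKM, and Col6a5 and Col6a6 averaged 0.138 FPKM each. For Col6a5 a single library held most of the reads: control 1 had 127 counts, against 0 to 28 in each of the other 11 libraries.

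**Figure D5:**
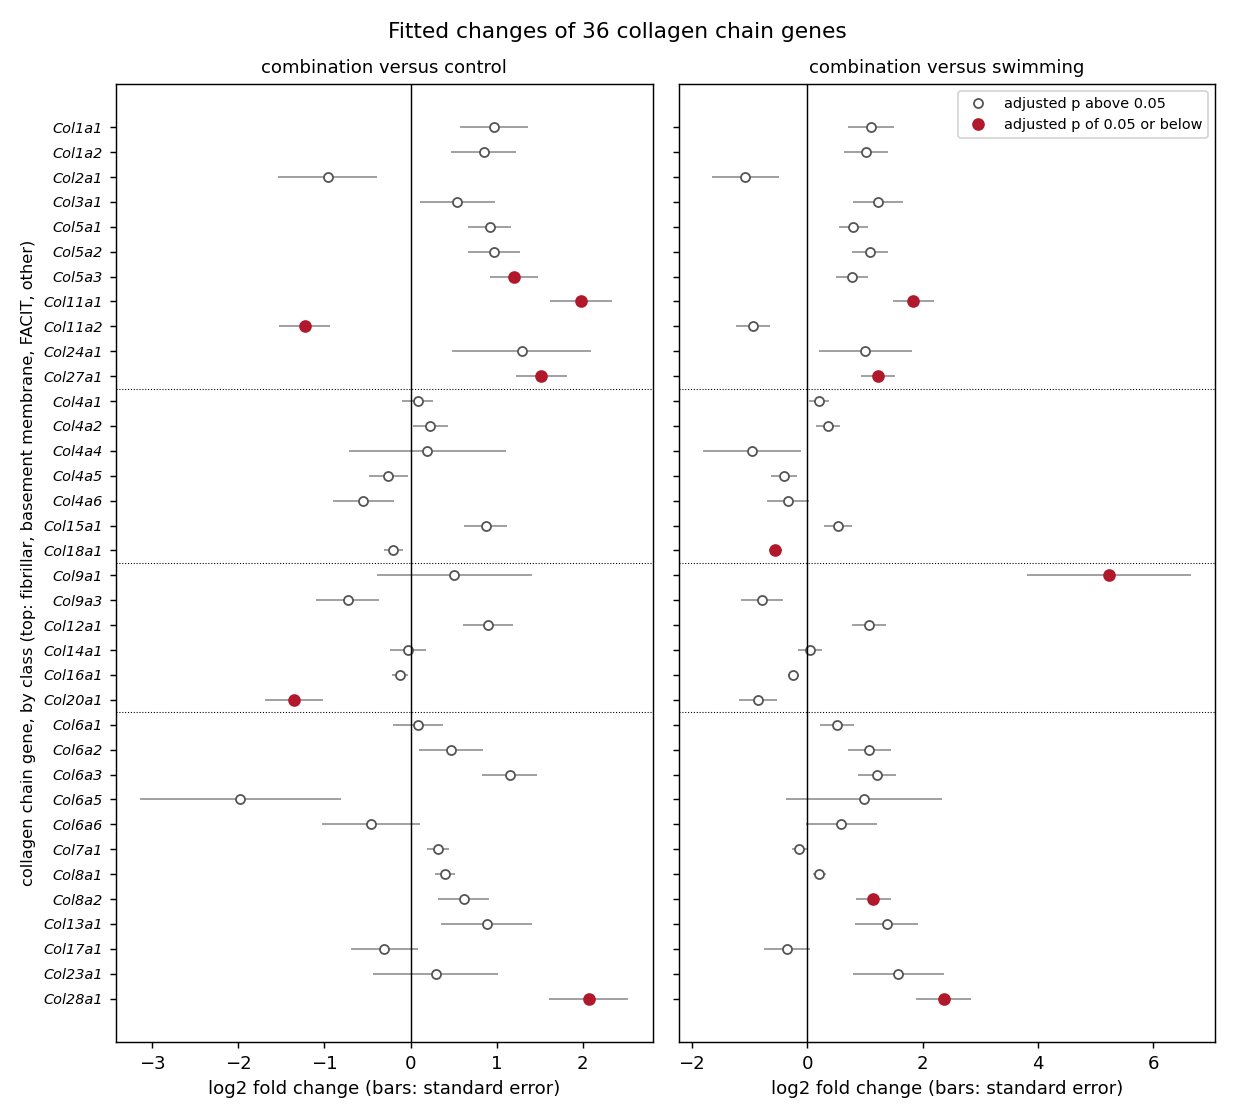
Log2 fold changes of the 36 tested collagen genes, combination against control on the left and combination against swimming on the right, with bars of 1 standard error. Filled points have an edgeR adjusted p of 0.05 or below, 6 in each panel, and open points do not. Fibrillar chains at the top lie mostly right of 0, with Col11a2 and Col2a1 left of it.

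The combination against swimming asks what curcumin added to swimming. Here 6 collagen genes were called, against 6.66% of all tested genes. Col11a1, Col27a1, Col28a1, Col8a2 and Col9a1 rose (3.5% of all genes were called higher) and Col18a1 fell (3.15% were called lower). The median log2 fold change was 0.69 over the 36 genes, of which 25 were positive, against 0.00 over all genes, of which 49.4% were positive. By class it was 1.02 for fibrillar chains, -0.33 for basement membrane chains, -0.10 for FACIT chains and 1.03 for the others. The combination libraries lay wholly above the swimming libraries for 20 of the 36 genes and wholly below for 6, against 22.2% and 17.9% of all genes.

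Of the genes given above, Col11a1 rose by 1.84 ± 0.36, Col27a1 by 1.24 ± 0.29 and Col28a1 by 2.36 ± 0.47 on the log2 scale (SE, n = 3 each, edgeR adjusted p = 0.0173, 0.0345 and 0.0179). Col8a2 (ENSMUSG00000056174, chr4:126180586-126208123), the partner of Col8a1 in hexagonal networks, had 0.593, 0.687 and 0.674 FPKM in combination, against 0.260, 0.344 and 0.263 FPKM in swimming. It had 0.582, 0.503 and 0.542 FPKM in curcumin and 0.517, 0.258 and 0.526 FPKM in control. The swimming libraries lay beneath all combination and curcumin libraries, and only control 2 lay with them. It rose against swimming by 1.15 ± 0.31 on the log2 scale (SE, n = 3 each, edgeR adjusted p = 0.0431).

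Col9a1 (ENSMUSG00000026147, chr1:24216691-24291765), a FACIT chain of cartilage, was nearly unread in swimming. It had 18, 27 and 48 counts in combination, 0, 42 and 23 counts in curcumin, 1, 1 and 0 counts in swimming and 26, 6 and 36 counts in control. The counts summed to 93 in combination, against 2 in swimming, a ratio of 44.4 after scaling to library size, with an exact 95% interval of 11.96 to 372 that covers counting error only. The edgeR adjusted p was 0.04997, at the edge of the threshold. Curcumin 1 also had 0 counts, whereas the other 8 libraries outside swimming had 6 or more.

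Col18a1 (ENSMUSG00000001435, chr10:76888012-77002382), the multiplexin whose C-terminal fragment is endostatin, was the chain that fell. It had 52.5, 46.8 and 47.2 FPKM in combination, 51.6, 41.2 and 43.5 FPKM in curcumin, 72.3, 64.2 and 74.8 FPKM in swimming and 50.4, 62.5 and 58.1 FPKM in control. Every swimming library was above every other library. Its log2 fold change against swimming was -0.55 ± 0.11 (SE, n = 3 each, edgeR adjusted p = 0.0178). In the table it overlaps Slc19a1 on the opposite strand by 8825 bases, and Slc19a1 averaged 28.2 CPM, so reads of the 2 genes may not be fully apart where the strand setting is not stated.

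Several abundant chains narrowly missed the threshold in this comparison. Log2 differences were 1.21 ± 0.32 for Col6a3, 1.07 ± 0.29 for Col12a1 and 1.09 ± 0.30 for Col5a2 (SE, n = 3 each, edgeR adjusted p = 0.0501, 0.0551 and 0.0568). For Col1a1 and Col3a1 they were 1.11 ± 0.40 and 1.23 ± 0.44 (SE, n = 3 each, edgeR adjusted p = 0.106 and 0.107). Endothelial markers differed more widely, and 7 of 8 were called higher in combination (3.5% of all genes were). Their summed level was 103 to 116 FPKM in combination, against 33.1 to 55.8 FPKM in swimming. The part of endothelium in the collagen differences was not tested. The type IV chains, which endothelium also makes, had log2 differences of 0.21 ± 0.18 for Col4a1 and 0.36 ± 0.20 for Col4a2 (SE, n = 3 each, edgeR adjusted p = 0.467 and 0.268).

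In this comparison too the count depended on which libraries were included. No collagen gene was called without any 1 combination library or without swimming 1 or swimming 3, 3 were called without curcumin 3, 11 without swimming 2, 12 without control 1 and 17 without control 2. Over all genes the share called was 0.225% to 0.644% without any 1 combination library, 0.788% without swimming 1, 1.17% without swimming 3, 3.38% without curcumin 3, 7.43% without swimming 2, 11.9% without control 1 and 19.5% without control 2. Col9a1 was also lost without control 3 or swimming 2, and Col8a2 without curcumin 1 or curcumin 2.

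The combination against curcumin asks what swimming added to curcumin. Col11a1 alone was called, against 0.851% of all tested genes (0.359% called higher), and it rose by 2.14 ± 0.36 on the log2 scale (SE, n = 3 each, edgeR adjusted p = 0.0259). It was therefore the one collagen gene called against all 3 other groups, comparisons that share the combination libraries. The median over the 36 genes was 0.22, with 25 positive, against -0.01 over all genes, of which 48.7% were positive. By class it was 0.25 for fibrillar chains, 0.40 for basement membrane chains, -0.18 for FACIT chains and 0.21 for the others. All 7 tested basement membrane chains had a positive difference, of which 3 had combination libraries wholly above curcumin libraries, against 13.9% of all genes. The Col11a1 call was lost without any 1 combination or any 1 curcumin library, whereas without control 2 there were 4 calls (5.17% of all genes) and without swimming 3 there were 3 (1.48% of all genes). Over all genes 0.0217% to 0.0362% were called without any 1 combination library and 0.0217% to 0.586% without any 1 curcumin library. Without curcumin 2 the median over the collagens was 0.37, with 30 of 37 positive.

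For curcumin alone against control, edgeR called no collagen gene, against 0% of all tested genes. At an unadjusted p under 0.05 there were 5 higher and 3 lower collagen genes (5.06% and 5.87% of all genes), DESeq2 called 1 (0.638% of all genes) and limma voom 0. The median log2 difference was 0.22 (0.04 without control 2 and 0.07 without curcumin 2), with 0.59 for fibrillar chains and -0.35 for basement membrane chains. Of the 7 basement membrane chains, 1 had a positive difference. Col1a1 differed by 0.79 ± 0.40 and Col4a1 by -0.32 ± 0.18 on the log2 scale (SE, n = 3 each, edgeR adjusted p = 0.495 and 0.526). Without control 1 the count was 1, with 0.0362% of all genes called.

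For swimming alone against control, edgeR called no collagen gene, against 0.308% of all tested genes. At an unadjusted p under 0.05 there were 2 higher and 2 lower (5.87% and 7.11% of all genes), DESeq2 called 2 (2.33% of all genes) and limma voom 0. The median log2 difference was -0.12, but it was 0.04 without swimming 3, -0.30 without swimming 2, -0.01 without control 1 and 0.01 without control 3. By class it was 0.11 for fibrillar chains, 0.14 for basement membrane chains, -0.12 for FACIT chains and -0.46 for the others. Col18a1 differed by 0.35 ± 0.11 and Col9a1 had 2 counts in swimming, against 68 in control (edgeR adjusted p = 0.201 and 0.202). Without control 2, 3 collagen genes and 4.36% of all genes were called. These 2 comparisons and that of the combination share the same control libraries.

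Whether the effect of both measures departed from the sum of each alone was tested as an interaction. No collagen gene was called by edgeR, against 0.249% of all tested genes, with 4 positive and 1 negative at an unadjusted p under 0.05 (5.46% and 5.54% of all genes). DESeq2 called 1 (1.59% of all genes), limma voom 0, and edgeR 2 without control 2 (3.29% of all genes). For Col11a1, whose curcumin and swimming levels lay at the control level, the interaction was 1.99 ± 0.51 on the log2 scale (SE, n = 3 each, edgeR adjusted p = 0.173).

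Chains differed in how closely they followed the type I and III core (the mean centred log2 CPM of Col1a1, Col3a1 and Col1a2). Over the 12 libraries Pearson's r with the core was 0.95 for Col5a2, 0.94 for Col5a1, 0.92 for Col6a2, 0.91 for Col12a1 and 0.89 for Col6a3. It was -0.83 for Col11a2, -0.74 for Col18a1 and -0.30 for Col4a1, and that of Col4a1 turned to 0.34 over the 11 libraries without control 2. Outside the collagens, the 10 genes most like the core were Fstl1, Mfap5, Depdc1b, Pif1, Ercc6l, Cdc7, Sgo1, Prim1, Parpbp and Cdca2, with r of 0.971 to 0.982 over 12 libraries and 0.936 to 0.973 without control 2. These values describe libraries that share group and depth and carry no test.

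Collagen chains need hydroxylases, chaperones, propeptidases and crosslinking enzymes, and they are read by receptors and removed by collagenases. Of 63 genes listed for these steps and for the ligands that induce collagen, 61 were tested. In combination against control 4 rose and none fell, where 2.43% of all genes were called higher and 2.43% were called lower. The median log2 difference was 0.20 over the 61 and -0.02 over all genes. Tgfb2, a TGF-β ligand that induces collagen, rose by 1.61 ± 0.24, Loxl2, a lysyl oxidase-like crosslinking enzyme, by 1.23 ± 0.22, Fkbp10, a procollagen chaperone, by 1.052 ± 0.26 and Pdgfa, a fibroblast growth ligand, by 0.88 ± 0.20 on the log2 scale (SE, n = 3 each, edgeR adjusted p = 0.00945, 0.0192, 0.0463 and 0.0362). None of the 12 prolyl and lysyl hydroxylases listed was called in this comparison.

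Tgfb2 had 4.25, 5.48 and 5.07 FPKM in combination, 2.48, 2.29 and 2.66 FPKM in curcumin, 2.28, 2.54 and 1.17 FPKM in swimming and 1.59, 1.83 and 1.48 FPKM in control, so that the combination libraries stood above all 9 others. Loxl2 had 20.2, 20.2 and 19.7 FPKM in combination, 14.2, 15.1 and 14.9 FPKM in curcumin, 13.2, 17.2 and 8.03 FPKM in swimming and 10.3, 7.11 and 8.61 FPKM in control, again with the combination on top. Without control 2 the calls of Loxl2, Fkbp10 and Pdgfa were lost and that of Tgfb2 held. All 4 calls were lost without combination 2 or combination 3, and those of Loxl2, Fkbp10 and Pdgfa also without combination 1. Fkbp10 and Pdgfa were also lost without control 3, curcumin 1, curcumin 3 or swimming 1, and Fkbp10 without curcumin 2.

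In combination against swimming, Tgfb2 rose by 1.28 on the log2 scale, while P4ha1, a catalytic subunit of prolyl 4-hydroxylase, fell by 0.68 and Smad3, a transducer of TGF-β signals, fell by 0.78 (edgeR adjusted p = 0.0136, 0.0475 and 0.0275). Of the 61 genes, 1 was called higher and 2 lower here, against 3.5% and 3.15% of all genes. Tgfb2 and Smad3 differed in direction, and signalling was not measured. P4ha1 had 49.99, 48.3 and 53.8 FPKM in combination, against 76.9, 80.4 and 83.5 FPKM in swimming, without overlap. In combination against curcumin, Tgm2, a transglutaminase that crosslinks matrix proteins, fell by 0.79 on the log2 scale (edgeR adjusted p = 0.0190). It was the only 1 of the 61 called, against 0.851% of all genes. For curcumin alone, swimming alone and the interaction none of the 61 was called, against 0%, 0.308% and 0.249% of all genes. The calls of Smad3 and P4ha1 were lost without any 1 combination library, swimming 1 or swimming 3, and that of P4ha1 also without swimming 2 or any 1 curcumin library; Tgfb2 was lost without combination 2 or combination 3, and Tgm2 without any 1 combination library, curcumin 2 or curcumin 3.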

How the data were processed

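RNA sequencing counts and FPKM values of 12 tumour libraries were used as the authors deposited them in one gene table. Per the labels' protocol, HISAT2 2.0.5 aligned paired-end reads to mm9, and counts from HTSeq 0.9.1 were turned into FPKM. The submitters' processing notes name cutadapt, TopHat2, HISAT2, HTSeq 0.9.1, DESeq 1.30.0 and GRCm39, so the build is stated in 2 ways. Gene coordinates are those of the table and are not in the GRCm38.p6 build of the promoter windows. Col11a1, on the plus strand, ends at 114014367 in the table, before its promoter window at 114030290 to 114030539. Strand setting and multimapping are not given in the sources used here, so overlapping genes are uncertain.

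Counts were filtered with filterByExpr (minimum count 10, minimum total 15), scaled by TMM and tested in 6 contrasts with edgeR 4.0.16 (R 4.3.3), by robust quasi-likelihood over the 12 libraries together (8 residual degrees of freedom), with Benjamini-Hochberg adjustment over 13638 genes. Each SE was the absolute log2 fold change divided by the square root of the F statistic of that test. It therefore rests on the spread estimated over the 12 libraries together. Groups came from the sample titles. Log2 CPM used a prior count of 2. Levels are deposited FPKM, with principal transcript lengths taken from GENCODE where stated. Intervals on counts and a floor of 3 counts cover counting error only. The fit was run on simulated data in which each gene had the same spread in all groups. That run cannot show how the fit behaves under the unequal spread of these groups.

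Values of each library are given for called chains and for the 3 highest chains of each class, and listed pathway genes are named where called. The members, classes and lists were chosen with earlier results of these data known. Alternatives were DESeq2 1.42.0, limma 3.58.1 voom, RLE scaling, other filters, a replicate block, the compared groups only, the combination libraries summed, no robust moderation and each library left out. Libraries of like number did not deviate together, so numbers were not used as pairs. No 2 libraries of a group agreed within sampling noise.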

Additional observations from a re-analysis of the deposited data

How the results depend on the processing

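The number of collagen genes called depended on the processing, and no call changed direction under any alternative. DESeq2 called 12 in combination against control, 14 against swimming, 3 against curcumin, 1 in curcumin against control, 2 in swimming against control and 1 in the interaction, where 12.1%, 13.8%, 5.13%, 0.638%, 2.33% and 1.59% of all genes were called in the same order. Limma voom with a weight per group called 6 in combination against curcumin and 17 against swimming (14.2% and 20.5% of all genes). A fit of the compared groups only called 1 in combination against control, 11 against curcumin and 17 against swimming (0.994%, 16% and 20.5% of all genes). With the combination libraries summed, no collagen gene, and no gene of any kind among 14155, was called in combination against control, curcumin or swimming. Leaving out 1 library at a time gave 0 to 12 calls in combination against control, 0 to 4 against curcumin, 0 to 17 against swimming, 0 to 1 in curcumin against control, 0 to 3 in swimming against control and 0 to 2 in the interaction. Without a filter, with a mean count of at least 50, with RLE scaling and without robust moderation, the 6 counts stayed within 1.5 times. The fit without robust moderation was chosen after seeing the data. With a mean count of at least 50 only 24 collagen genes were tested, and Col28a1, Col8a2 and Col9a1 were not among them. Among single genes, Col5a3, Fkbp10, Col8a2, Col9a1 and P4ha1 lost their calls without the filter, Col28a1 and Fkbp10 lost theirs against control with limma voom, and Col9a1 also with voom and with RLE scaling. The causes were not tested.

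With replicate number as a block, 1 collagen gene was called in combination against control, 0 against curcumin and 3 against swimming (1.61%, 0.205% and 3.64% of all genes). The numbers come from the titles, and deviations of like-numbered libraries correlated at -0.25 to 0.16, with 2 of 18 pairs over 0.1, so they give no pairing. The precision is limited by 3 libraries a group and by unequal spread, 6.47% in combination and 26.7% in control. Genes under about 100 counts, such as Col28a1 and Col9a1, carry wide counting error.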
